A study of Bos taurus with 10 samples.

Results

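The genes described here are those of local thyroid hormone handling in the corpus luteum, the progesterone-secreting gland that forms from the ovulated follicle. They are the deiodinases DIO1, DIO2 and DIO3, the membrane transporter SLC16A10 and the nuclear receptors THRA and THRB. Probesets were chosen by their annotation alone, as those carrying exactly 1 of these symbols, and each of the 6 genes had 1 such probeset among 18010 genes of the table with a probeset of their own. Total RNA of bovine (Bos taurus) corpora lutea, taken at day 7 of the cycle, was measured on whole-transcript arrays, 1 array per sample. The cows had received selenium in different forms, which the labels name only as MIX (5 samples) and ISe (5 samples). Both groups were supplemented, so every comparison is one between 2 forms of supplement, and the number of arrays limits its precision. Other differences between the 2 sets of samples cannot be told apart from the form of supplement. The labels give no breed, age or dose. Nor do they state that the samples are of separate cows, and p-values then cover only the variation among these 10 samples, which may be technical.

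Thyroid hormone leaves the thyroid gland mostly as the prohormone thyroxine and is activated or inactivated inside target tissues. DIO1 and DIO2 remove an iodine atom from the outer ring of thyroxine and give the active hormone triiodothyronine, while DIO3 removes one from the inner ring and gives inactive products. All 3 deiodinases are selenoproteins: their active site holds selenocysteine, which links thyroid hormone activation to selenium supply. SLC16A10 is a monocarboxylate transporter that carries triiodothyronine and aromatic amino acids through the cell membrane. THRA and THRB are ligand-controlled transcription factors that bind DNA mostly with a retinoid X receptor, hold corepressors without hormone and exchange them for coactivators when hormone binds.

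The values are log2 signals as deposited, with array medians between 5.99 and 6.04 and correlations between arrays from 0.980 to 0.990. The first principal component set MIX 8 apart at 32.8, with the other 9 arrays between -9.47 and 1.27. Markers of steroidogenic luteal cells were bright with CYP11A1, which cleaves the cholesterol side chain, at 12.99 ± 0.03 (SD, n = 5) in MIX and 13.01 ± 0.04 (SD, n = 5) in ISe. The signal of a probeset also depends on its probes, so levels were not compared between genes. The files give no detection call, so whether a dim signal lay above background could not be decided. DIO1 and DIO2 lay under their array's 25th percentile on 10 of 10 arrays and DIO3 on 5 of 10.

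No difference between MIX and ISe passed the test for any of the 6 genes. The log2 differences (MIX minus ISe) ran from -0.02 for SLC16A10 to 0.14 for DIO1, with a median of 0.02, against a median of 0.001 over the 19145 probesets tested. The limma fit, which moderates each probeset's variance, gave adjusted p-values from 0.941 to 0.999 for them, with Benjamini-Hochberg adjustment over all probesets. At an adjusted p under 0.05 it called 0 of the 6 genes and 0% of all probesets. At an unadjusted p under 0.05 it passed 0 of the 6 and 4.79% of all probesets. The groups did not overlap for 0 of the 6 genes and for 0.642% of all probesets.

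**Figure D1:**
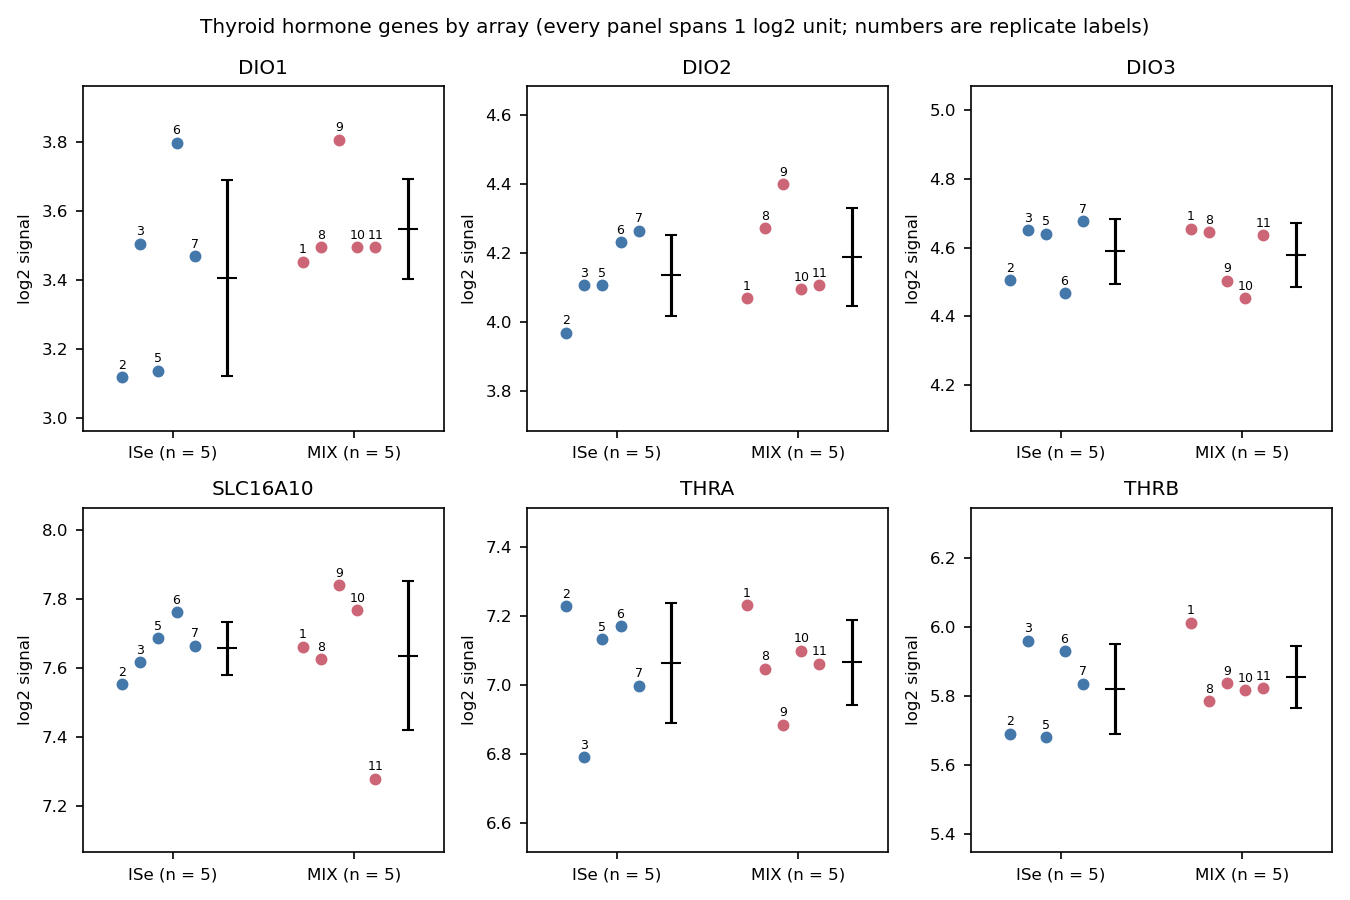
Deposited log2 signal of each gene on each array (vertical axis, every panel spanning 1 log2 unit), with ISe in blue and MIX in red, replicate labels beside the points, and bars for the mean ± SD of 5 arrays. The groups overlap in all 6 panels, DIO1 covers the widest range at 0.69 log2 and DIO3 the narrowest at 0.22.

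DIO1, the deiodinase best known from liver, kidney and thyroid, varied most of the 6 genes. In ISe its log2 signal was 3.12 in ISe 2, 3.51 in ISe 3, 3.14 in ISe 5, 3.80 in ISe 6 and 3.47 in ISe 7. In MIX it was 3.45 in MIX 1, 3.81 in MIX 9, and 3.49 in each of MIX 8, MIX 10 and MIX 11. ISe 2 and ISe 5 were the lowest samples, ISe 6 and MIX 9 the highest, and the range of MIX lay almost wholly inside that of ISe. The MIX mean was 3.55 ± 0.15 and the ISe mean 3.41 ± 0.28 (SD, n = 5 each), a fold change of 1.10 with a 95% interval of 0.906 to 1.35. Neither the limma fit (adjusted p = 0.941) nor the exact permutation of the 5 against 5 arrays (p = 0.294) passed the threshold. This is the widest interval of the 6 genes, at 0.29 log2 to either side. The pooled SD within groups, 0.23, lay at the 77.1th percentile of all probesets tested.

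MIX 8, MIX 10 and MIX 11 held the same DIO1 value to every deposited digit, and so did ISe 3, ISe 5 and MIX 11 for DIO2. A value shared by 2 or more arrays occurred in 41.6% of the probesets tested, so shared values as such were not particular to the deiodinases. The share of probesets with 3 arrays alike was not counted. DIO3, SLC16A10, THRA and THRB had 10 different values each.

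DIO2, the outer-ring deiodinase that supplies triiodothyronine within target cells, showed less spread. The 5 ISe samples lay at 3.97 (ISe 2), 4.11 (ISe 3), 4.11 (ISe 5), 4.23 (ISe 6) and 4.27 (ISe 7). The 5 MIX samples lay at 4.07 (MIX 1), 4.27 (MIX 8), 4.40 (MIX 9), 4.10 (MIX 10) and 4.11 (MIX 11). The groups overlapped throughout, with ISe 2 the lowest and MIX 9 the highest sample. The fold change was 1.04 (95% interval 0.914 to 1.18, limma adjusted p = 0.966, exact permutation p = 0.603). Without MIX 9 the log2 difference, 0.05 over all arrays, was -5.35e-05.

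DIO3, the inner-ring deiodinase that ends thyroid hormone action, was the steadiest of the 6 genes. Its signal was 4.51, 4.65, 4.64, 4.47 and 4.68 in ISe 2, 3, 5, 6 and 7. In MIX 1, 8, 9, 10 and 11 it was 4.65, 4.64, 4.50, 4.45 and 4.64. The 10 samples fell within 0.22 log2 of each other, with MIX 10 the lowest and ISe 7 the highest, and the group means, 4.58 ± 0.09 for MIX and 4.59 ± 0.09 for ISe (SD, n = 5 each), lay 0.01 log2 apart. The fold change was 0.993 (95% interval 0.897 to 1.10, limma adjusted p = 0.999, exact permutation p = 0.722). The pooled SD of 0.09 lay at the 19.6th percentile of all probesets.

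SLC16A10, the transporter, lay above the array medians on 10 of 10 arrays. The ISe samples lay close together at 7.55 (ISe 2), 7.62 (ISe 3), 7.69 (ISe 5), 7.76 (ISe 6) and 7.67 (ISe 7). The MIX samples spread further, at 7.66 (MIX 1), 7.63 (MIX 8), 7.84 (MIX 9), 7.77 (MIX 10) and 7.28 (MIX 11). MIX 9 was the highest sample and MIX 11 the lowest, below every ISe sample. The SD was 0.22 in MIX and 0.08 in ISe (n = 5 each), a difference in spread that was not tested. The fold change was 0.985 (95% interval 0.848 to 1.14, limma adjusted p = 0.993, exact permutation p = 0.889). The log2 difference was -0.02 with all arrays and 0.07 without MIX 11.

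THRA, the receptor with the broader tissue distribution, had nearly the same mean in both groups. Its signal was 7.23 in ISe 2, 6.79 in ISe 3, 7.13 in ISe 5, 7.17 in ISe 6 and 7.00 in ISe 7. The MIX samples lay at 7.23 (MIX 1), 7.05 (MIX 8), 6.89 (MIX 9), 7.10 (MIX 10) and 7.06 (MIX 11). ISe 3 and MIX 9 were the lowest and MIX 1 and ISe 2 the highest samples, so both groups spanned nearly the same range. MIX averaged 7.07 ± 0.12 and ISe 7.06 ± 0.17 (SD, n = 5 each), a fold change of 1.00 with a 95% interval of 0.869 to 1.15 (limma adjusted p = 0.999, exact permutation p = 0.992). THRA lies beside NR1D1, a nuclear receptor of the circadian clock, on the opposite strand in many mammals. A further probeset carried both symbols and could be assigned to neither gene. Its MIX mean was 6.34 ± 0.36 and its ISe mean 6.18 ± 0.45 (SD, n = 5 each), a log2 difference of 0.16 ± 0.23 (SE, limma adjusted p = 0.957).

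THRB, the receptor that mediates much of the hormone's action in liver and pituitary, lay just under the array medians. The ISe samples were at 5.69 (ISe 2), 5.96 (ISe 3), 5.68 (ISe 5), 5.93 (ISe 6) and 5.84 (ISe 7). The MIX samples were at 6.01 (MIX 1), 5.78 (MIX 8), 5.84 (MIX 9), 5.82 (MIX 10) and 5.82 (MIX 11). MIX 1 was the highest sample and stood apart from the other 4 MIX samples, while ISe 5 and ISe 2 were the lowest. The fold change was 1.02 (95% interval 0.914 to 1.15, limma adjusted p = 0.977, exact permutation p = 0.643).

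The intervals bound what these arrays could miss. For DIO3 and THRB they reached 0.90-fold to 1.10-fold and 0.91-fold to 1.15-fold. They reached 0.91-fold to 1.18-fold for DIO2, 0.85-fold to 1.14-fold for SLC16A10 and 0.87-fold to 1.15-fold for THRA. The interval of DIO1 was the widest, from 0.91-fold to 1.35-fold. For the 3 dim deiodinase probesets these bounds concern the array signal, with no detection call behind it.

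**Figure D2:**
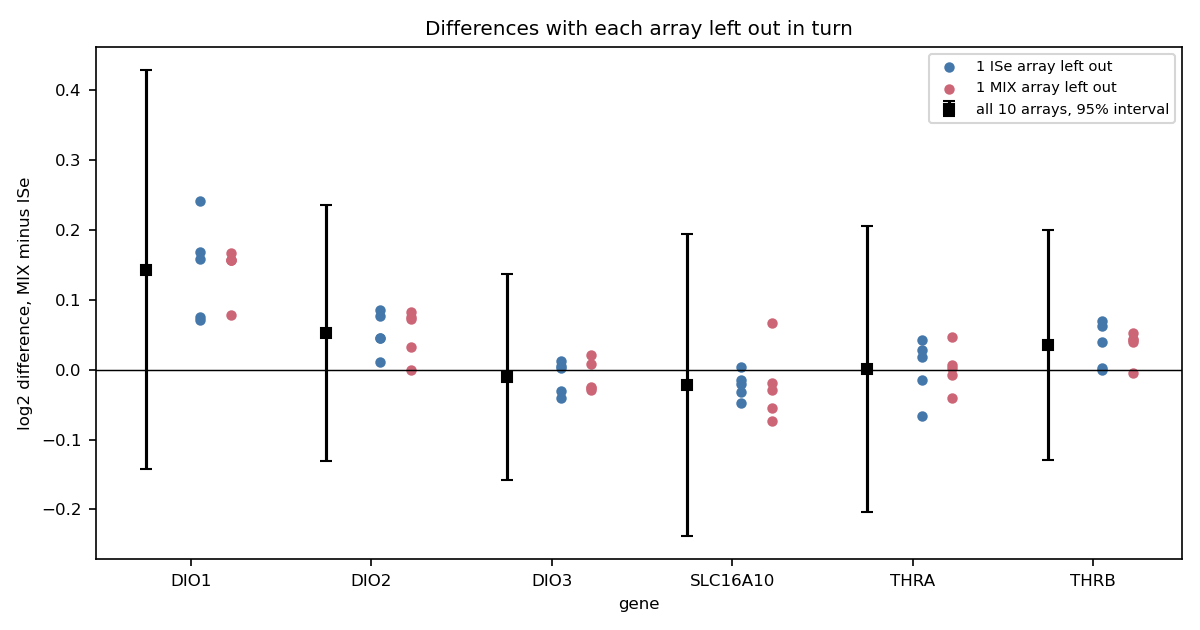
Log2 difference (MIX minus ISe, vertical axis) of each gene with all 10 arrays (black square, 95% interval of the limma fit) and with 1 ISe array (blue) or 1 MIX array (red) left out. DIO1 stays above 0, between 0.07 without ISe 2 and 0.24 without ISe 6, and the other 5 genes lie on both sides of 0.

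Leaving out 1 array at a time moved DIO1 between 0.07 (without ISe 2) and 0.24 (without ISe 6), and it was the only one of the 6 whose difference kept its sign. Its smallest unadjusted p under any alternative was 0.0541, without ISe 6, and its smallest adjusted p in the limma fits was 0.907. The other 5 genes changed sign in at least 1 of these fits.

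No pair of the 6 genes had a correlation that passed adjustment. Of the 15 pairs, 7 had a positive and 8 a negative correlation over the 10 arrays, and 0 passed an adjusted p under 0.05 (Benjamini-Hochberg over the pairs). DIO1 and DIO2 were the closest, with Pearson's r = 0.73 (permutation p = 0.0202, adjusted p = 0.303) and Spearman's rho = 0.64 (permutation p = 0.0522, adjusted p = 0.391). Without the 2 arrays farthest from the median of DIO1, r was 0.65, and 0.66 without those farthest from that of DIO2. Both genes were highest in MIX 9 and lowest in ISe 2, and both are dim. DIO1 and THRB came next at r = 0.61 (permutation p = 0.0593, adjusted p = 0.445) and rho = 0.51 (permutation p = 0.138, adjusted p = 0.516). The value depended on which arrays were used, with r = 0.01 without the 2 farthest from the median of DIO1 and 0.68 without the 2 farthest from that of THRB. The most negative pair was DIO2 with THRA, at r = -0.51 (permutation p = 0.135, adjusted p = 0.575) and rho = -0.67 (permutation p = 0.0403, adjusted p = 0.391). Here r was -0.31 without the 2 arrays farthest from the median of DIO2 and -0.70 without those farthest from that of THRA. The receptors were at r = -0.21 (permutation p = 0.569, adjusted p = 0.831) and rho = -0.14 (permutation p = 0.708, adjusted p = 0.892). Their r turned to 0.18 without the 2 arrays farthest from the median of THRA and was -0.57 without those farthest from that of THRB. MIX 9 was the highest sample for DIO1, DIO2 and SLC16A10 and the second lowest for THRA.

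**Figure D3:**
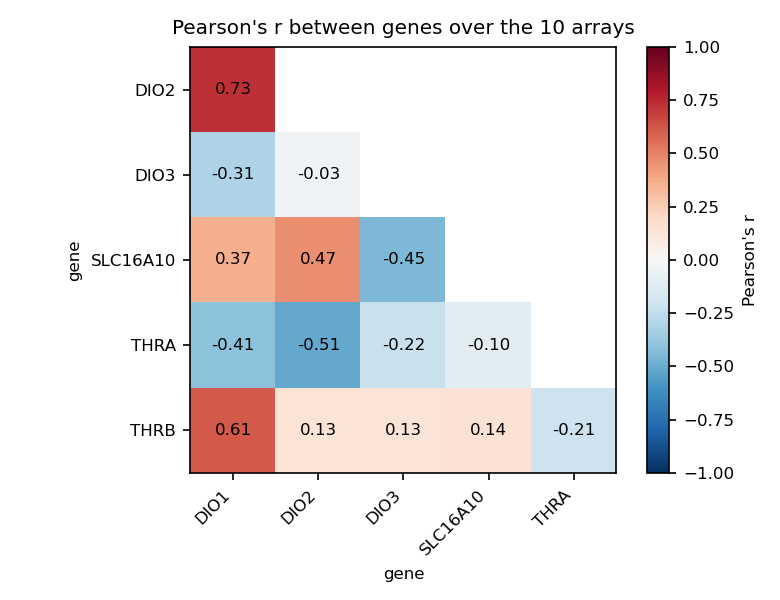
Pearson's r between each pair of the 6 genes over the 10 arrays (both axes list genes, colour and number give r, n = 10). The values run from -0.51 for DIO2 and THRA to 0.73 for DIO1 and DIO2, and 0 of the 15 pairs passed the adjusted threshold.

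For each gene the 3 genes with the highest Pearson's r over the 10 arrays were picked out of 16306. Genes with placeholder names, such as LOC numbers, open reading frames and small RNAs, were left out beforehand. These values of r are high by selection and carry no p. DIO1 was closest to TM9SF5 (r = 0.96), OR5B146 (0.94) and VASN (0.92). CAGE1 (0.97), CSMD2 (0.93) and WWC1 (0.91) were closest to DIO2, and IFT81 (0.88), CCL20 (0.85) and FEM1B (0.85) to DIO3. SLC16A10 was closest to PLCXD1 (0.92), ADHFE1 (0.91) and MAP2K3 (0.89). Closest to THRA were PIP5K1C and INPPL1 (0.94 each) and TSPAN9 (0.93), and to THRB AMY2B (0.92), MEIS1 (0.91) and ACP2 (0.89). Without the 2 arrays farthest from the median of each gene, r ran from 0.52 (ADHFE1 with SLC16A10) to 0.97 (PLCXD1 with SLC16A10). None of the 6 genes was among the closest of another.

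In the wider pathway, 54 genes of 9 lists were measured, covering transporters, binding proteins, receptor partners, coregulators, responsive genes, hormone disposal, genes best known from the thyroid gland and neighbours of the receptor genes. Their median log2 difference was 0.02, and 30 had a higher and 24 a lower mean in MIX. The limma fit called 0 of them at an adjusted p under 0.05. At an unadjusted p under 0.05 it passed 2 of the 54, SLCO2B1 and ITGB3, against 4.79% of all probesets in either direction, so the count was not above the background. Both were higher in MIX, as were 2.67% of all probesets at that p. The coactivator genes EP300 and KAT2B, the glucuronosyltransferase gene UGT1A1 and NR1D1 were not analysed here.

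**Figure D4:**
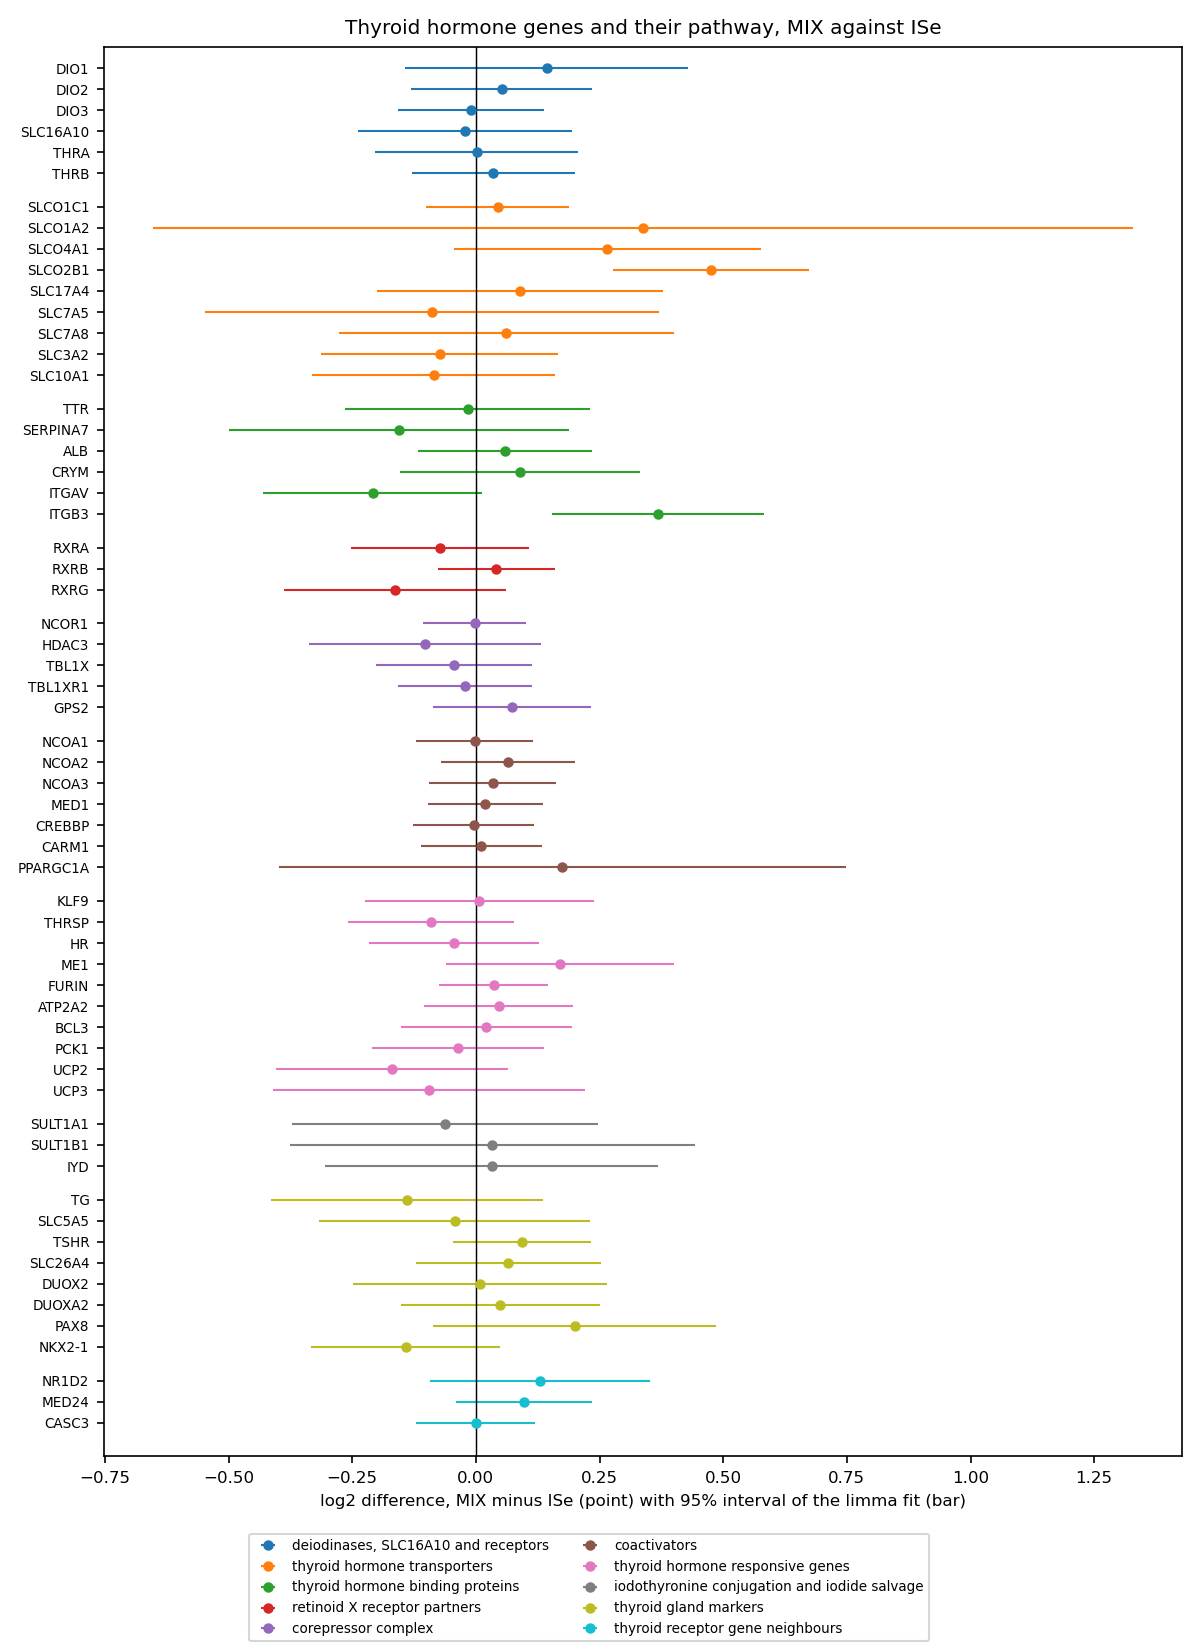
Log2 difference (MIX minus ISe, horizontal axis) with its 95% interval from the limma fit for the 6 genes and the 54 pathway genes, coloured by list. The intervals of 2 genes, SLCO2B1 and ITGB3, exclude 0, before adjustment, and that of SLCO1A2 is the widest.

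Among the 9 other transporters measured, SLCO2B1, an organic anion transporter that accepts thyroxine, was the only one whose groups did not overlap. It was also the only 1 of the 54 pathway genes without overlap, against 0.642% of all probesets. Its signal was 5.56, 5.96, 5.81, 5.69 and 5.90 in ISe 2, 3, 5, 6 and 7. In MIX 1, 8, 9, 10 and 11 it was 6.28, 6.27, 6.40, 6.06 and 6.28. All 5 MIX samples thus lay above all 5 ISe samples, with MIX 10 nearest to ISe 3. The fold change was 1.39 (95% interval 1.21 to 1.59), the sixth smallest unadjusted p of the 19145 probesets, yet it did not pass adjustment (limma adjusted p = 0.809, between 0.583 and 0.984 under the alternatives). The exact permutation p was 0.00794, the smallest that 5 against 5 arrays allow. Any probeset whose groups do not overlap reaches that value, so it adds nothing to the separation itself. SLCO4A1, a related transporter, was next in its list at 0.27 ± 0.14 (log2 difference ± SE, limma adjusted p = 0.941). SLC7A5, SLC7A8 and SLC3A2, which form amino acid exchangers that also carry thyroid hormone, were at -0.09 ± 0.21, 0.06 ± 0.15 and -0.07 ± 0.11 (log2 difference ± SE).

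Of the 6 binding proteins, ITGB3 had a higher and ITGAV a lower mean in the MIX samples. These integrin chains together form a membrane binding site for thyroxine, beside their main role in cell adhesion. ITGB3 lay at 5.90, 6.08, 5.76, 5.82 and 5.69 in ISe 2, 3, 5, 6 and 7, and at 6.34, 6.45, 6.05, 6.12 and 6.11 in MIX 1, 8, 9, 10 and 11. ISe 3 reached above MIX 9, and the other samples kept to their group's side. The fold change was 1.29 (95% interval 1.11 to 1.50, limma adjusted p = 0.941, exact permutation p = 0.0159). Without MIX 1 and MIX 8 its log2 difference was 0.25 in place of 0.37. ITGAV was at -0.21 ± 0.10 (log2 difference ± SE, limma adjusted p = 0.941), opposite in sign to its partner chain. CRYM, which binds triiodothyronine in the cytosol, was at 0.09 ± 0.11 and TTR, a carrier of thyroxine in plasma, at -0.02 ± 0.11 (log2 difference ± SE).

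**Figure D5:**
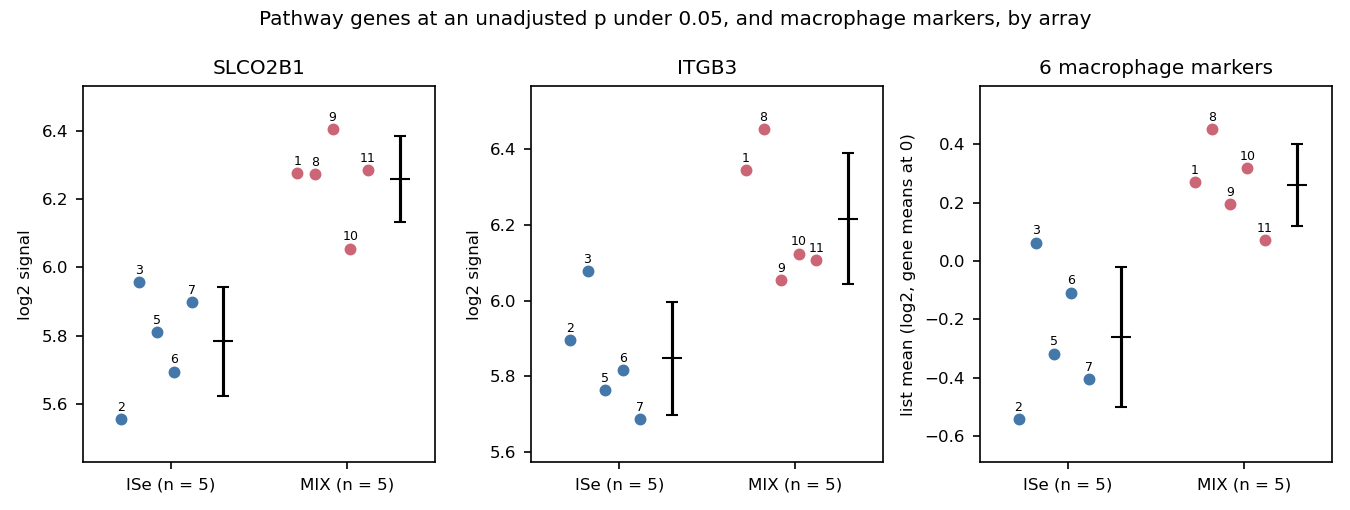
Log2 signal of SLCO2B1 and ITGB3 and the mean of 6 macrophage markers (each gene centred on its mean over the 10 arrays) by array, with ISe in blue, MIX in red, replicate labels, and bars for mean ± SD of 5 arrays. All 5 MIX samples lie above all 5 ISe samples for SLCO2B1 and, narrowly, for the macrophage marker mean. ISe 3 reaches above MIX 9 for ITGB3.

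All 6 macrophage markers measured (CD68, CD14, C1QA, C1QB, CSF1R and CD163) had higher MIX means, by 0.50 to 0.56 log2. Each was at an unadjusted p under 0.05, against 4.79% of all probesets in either direction and 2.67% higher in MIX. These markers were picked with their values known. The list mean of the 6 markers ran from 0.072 to 0.45 in MIX and from -0.54 to 0.062 in ISe, so the groups narrowly did not overlap. Taken singly, only CD68 had groups without overlap, against 0.642% of all probesets. No marker was called after adjustment, and the smallest adjusted p in the limma fit was 0.926. The part of macrophage content in the SLCO2B1 and ITGB3 differences was not tested, and in tissue RNA more cells of a type and more RNA per cell cannot be told apart. Of the 6 endothelial markers, 6 also had higher MIX means, with a median of 0.16 log2 and 1 gene (TEK) at an unadjusted p under 0.05. Their list mean overlapped between groups, from -0.12 to 0.17 for MIX and -0.28 to 0.26 for ISe. The median was 0.25 for 4 T cell markers (from -0.09 to 0.38) and -0.07 for 5 fibroblast markers (from -0.18 to 0.04). It was -0.01 for 4 pericyte markers (from -0.09 to 0.11) and -0.001 for 6 luteal markers (from -0.26 to 0.03). In these lists 0 genes were at an unadjusted p under 0.05.

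The partners and coregulators of the receptors showed small differences. RXRA, RXRB and RXRG, the retinoid X receptors, had a median of -0.07 log2. RXRG was at -0.16 ± 0.10, RXRA at -0.07 ± 0.08 and RXRB, higher in MIX, at 0.04 ± 0.05 (log2 difference ± SE). RXRG was dim, with a mean of 3.16 over the 10 arrays. Leaving out the dimmest 25% of probesets removed RXRG and gave a median of -0.016. The 5 corepressor genes had a median of -0.02, with GPS2 at 0.07 ± 0.07 and the deacetylase HDAC3 at -0.10 ± 0.11. NCOR1, the corepressor that binds unliganded receptors, averaged 9.06 ± 0.02 for MIX and 9.06 ± 0.04 for ISe (SD, n = 5 each). The 7 coactivator genes had a median of 0.02, with NCOA2 at 0.06 ± 0.06, and PPARGC1A, a regulator of mitochondrial genes, at 0.17 ± 0.26 (log2 difference ± SE). PPARGC1A was dim too, with a mean of 3.60 over the 10 arrays. For these 15 genes, 0 passed at an unadjusted p under 0.05.

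Genes that respond to thyroid hormone in liver, muscle or brain showed no common direction. Of 10, 5 had a higher and 5 a lower mean in MIX, with a median of -0.01 log2, and 0 passed at an unadjusted p under 0.05. ME1, the cytosolic malic enzyme, was at 0.17 ± 0.10 and UCP2, an uncoupling protein of mitochondria, at -0.17 ± 0.11 (log2 difference ± SE). KLF9, a transcription factor induced directly by the receptors in rodents, was at 0.01 ± 0.11, and HR, a corepressor gene that responds in rodent brain, at -0.04 ± 0.08. THRSP, a lipogenic response gene of liver, gave a dim signal, 2.30 ± 0.06 for MIX and 2.40 ± 0.15 for ISe (SD, n = 5 each).

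No gene of hormone disposal or of the thyroid gland passed the test. SULT1A1, a sulfotransferase, was at -0.06 ± 0.14 and IYD, which recovers iodide, at 0.03 ± 0.15 (log2 difference ± SE). The 8 genes best known from the thyroid gland had means over the 10 arrays between 3.08 (SLC26A4) and 5.33 (DUOX2), with NKX2-1 at -0.14 ± 0.09 and PAX8 at 0.20 ± 0.13. Across the neighbours of the receptor genes, NR1D2, beside THRB, was at 0.13 ± 0.10 and MED24, near THRA, at 0.10 ± 0.06 (log2 difference ± SE). For these 14 genes, 0 passed at an unadjusted p under 0.05.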

How the data were processed

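Per the labels' protocols, pieces of frozen luteal tissue gave total RNA (TRIzol), which was fragmented, biotinylated and hybridised to single-colour Affymetrix whole-transcript arrays. The authors deposited 1 value per probeset and array, taken here as log2 signal because the values run from 0.54 to 14.17. The submitters' processing notes name GCOS 1.2 and Partek without a role. How probes were corrected, summarised and normalised is not given in the sources used here. Array medians were close, so values were used as deposited.

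MIX was compared with ISe by limma 3.58.1 (lmFit and eBayes, R 4.3.3), two-sided, adjusted by Benjamini-Hochberg over the 19145 of 26773 probesets annotated with at least 1 symbol. All 6 symbols are current in the RefSeq cattle gene table (ARS-UCD2.0), used for names only. The fit was checked on simulated data. Single values were also tested by exact permutation, correlations with 100000 permutations (Python 3.11.15, numpy 2.4.6). The 6 genes and the lists were chosen with earlier results of these data known. By rule, the text names the 6 genes and, in each list, genes at an unadjusted p under 0.05 and at least the 2 smallest p. The rule adds the 3 genes, placeholder names left out, with the highest r to each of the 6. SLC7A5, SLC7A8, SLC3A2, CRYM, TTR, RXRB, NCOR1, KLF9, HR, THRSP, SLCO1A2, SLC26A4, DUOX2, RPL15, TG and the cell markers fall outside it and were picked with their values known. Alternatives were quantile normalisation, median centring, filters on dim probesets, all probesets, gene means, other variance moderation, array weights and arrays left out. Figures were drawn with matplotlib 3.10.9.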

Additional observations from a re-analysis of the deposited data

Results flagged for a closer look

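In 3 of the 48 groups of 5 arrays examined (the 6 genes and 18 named pathway genes), 1 array lay far from the other 4. The gap was over 0.71 of the group's range, where chance gives about 1 in 20. The count of 3 is close to that rate. DIO1 was 3.81 in MIX 9, with the other MIX arrays between 3.45 and 3.49, of which 3 held the same value. The chance rate assumes values without ties, so it does not hold for this group. THRB was 6.01 in MIX 1, with the others between 5.78 and 5.84. PPARGC1A was 2.75 in ISe 3, with the others between 3.60 and 3.85.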

How the results depend on the processing

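The 6 genes stayed short of the adjusted threshold under every alternative that tested them. Leaving out the dimmest 25% of probesets removed DIO1, DIO2 and DIO3, and leaving out the dimmer 50% also removed THRB. The sign of THRA turned to -0.0060 after quantile normalisation, -0.0016 with array quality weights and -0.048 without MIX 1 and MIX 8 together. With 1 array left out, log2 differences ran from -5.35e-05 to 0.085 for DIO2, -0.040 to 0.021 for DIO3, -0.073 to 0.067 for SLC16A10, -0.067 to 0.047 for THRA and -0.0044 to 0.070 for THRB. They ran from -0.016 to 0.36 for PPARGC1A, -0.15 to 0.032 for SULT1A1 and -0.040 to 0.14 for IYD. The cause was not tested. No probeset was called except 1 without MIX 8 (RPL15, limma adjusted p = 0.0241). Of the pathway genes, 2 passed an unadjusted p under 0.05. This was 0 without the dimmer 50%, which removed both, and between 2 and 5 with 1 array left out. The 5, without MIX 8, were ITGAV, ITGB3, NKX2-1, SLCO2B1 and TG. Another gene joined SLCO2B1 and ITGB3 without MIX 9 (HDAC3), MIX 10 (ME1), MIX 11 (SLCO4A1) or ISe 5 (SLC7A5), and ITGAV joined them with trended moderation, array weights, or without MIX 1 and MIX 8. Single arrays moved other named genes by over 1.5 times, and the extremes follow. HDAC3 was -0.20 without MIX 9 and -0.05 without MIX 1, and GPS2 0.03 without MIX 9 and 0.12 without MIX 8. RXRA was -0.03 without ISe 2 and -0.11 without MIX 10, RXRG -0.11 without ISe 5 and NCOA2 0.03 without ISe 7. PAX8 was 0.10 without MIX 10, NKX2-1 -0.09 and UCP2 -0.10 without MIX 1, ITGAV -0.14 without MIX 11, and NR1D2 0.08 without MIX 8 and 0.20 without ISe 2. The groups share no replicate number, so no paired fit was made. Low brightness of the deiodinase probesets limits what their intervals bound.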
